A study of Mus musculus with 6 samples.

Results

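In neonatal mice, 90 protein-coding genes had few or no reads in the right ventricle (RV) after a sham operation and more after pulmonary artery banding (PAB). Each had a sham mean under 50 normalized reads and a PAB mean above it, and these genes, called low-sham genes here, are the members described. Endothelin-3 (Edn3), the synaptic membrane protein Syndig1, the reelin receptor Lrp8, the mucin Muc15 and the tumor necrosis factor receptor Tnfrsf9 were among the 10 with the largest fold changes on the log2(value + 1) scale, of which 7 stayed among the 10 largest with a pseudocount of 0.1 and Lrp8, Ryr3 and Tnfrsf9 did not. The rule left out Sprr1a, Car9, Stc1 and symbols that begin with Krt, Adam, Serpin, Kcn, Klh, Gpr or Slc, which removed 16 of 106 genes. The table lists 617 genes, of which 528 are protein coding, 290 have a higher mean in PAB and 269 are both, so the members are 31.0% of the 290 genes higher in PAB. Because the group means chose the members, the difference between sham and PAB is given as a description, and counts of p-values below are no test of it.

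All 6 libraries were made from RV tissue of wild-type (WT) C57/BL6J mice, operated on at postnatal day 1 and harvested at postnatal day 7. In the 3 PAB libraries the pulmonary artery had been narrowed with a band, and in the 3 sham libraries the same surgery had been done with no band. The samples are labelled as mouse, although the extraction protocol speaks of a rat. The labels do not say whether a library held 1 mouse or a pool, so replicates may differ for technical as well as biological reasons. Judged from the values under 50, which are whole multiples of 1 step per library, the values are read counts per gene divided by 1 size factor per library, between 0.939 and 1.07, so a normalized read is close to 1 sequenced read. Total depth is unknown because the table holds only genes that the authors selected as different between the groups. None of 8 cardiomyocyte markers is among the listed genes, so the labelled tissue could not be checked by its main cell type.

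In pressure overload, the ventricle pumps against a raised resistance, its cardiomyocytes enlarge, and genes of the fetal heart and of the matrix are known to come back on. Most abundant transcripts of that response belong to muscle cells, whereas many paracrine ligands, receptors and regulators are made at low levels or by scarce cells. In bulk tissue, fewer cells of a type and less RNA per cell cannot be told apart, which applies to every value below.

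To show where transcription of such genes starts, 250 bases upstream of the start site are printed for 4 members, taken from RefSeq on GRCm38.p6 and read 5′ to 3′ on the strand of the gene. Edn3, Fgf6 and Syndig1 are the members with at most 3 reads in every sham library for which a window was given. Cnksr1 is shown as 1 of 6 members with a window that held 2 of the 4 motifs searched and no annotated exon, the others being Bdnf, Erc2, Grip1, Mctp1 and Runx1. Windows lie at chr2:174760369-174760618 (plus strand) for Edn3, chr6:127015292-127015541 (plus strand) for Fgf6, chr2:149830533-149830782 (plus strand) for Syndig1 and chr4:134238400-134238649 (minus strand) for Cnksr1. No exon of the GENCODE vM21 annotation falls in the windows of Edn3, Fgf6 and Cnksr1, while that of Syndig1 overlaps an exon of C530025M09Rik on the opposite strand. Capitals mark a match to a motif.
Edn3: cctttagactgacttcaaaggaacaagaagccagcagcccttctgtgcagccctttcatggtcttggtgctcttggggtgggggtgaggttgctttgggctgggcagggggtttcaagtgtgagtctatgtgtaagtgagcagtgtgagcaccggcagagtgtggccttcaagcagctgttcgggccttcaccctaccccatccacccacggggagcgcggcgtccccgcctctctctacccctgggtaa
Fgf6: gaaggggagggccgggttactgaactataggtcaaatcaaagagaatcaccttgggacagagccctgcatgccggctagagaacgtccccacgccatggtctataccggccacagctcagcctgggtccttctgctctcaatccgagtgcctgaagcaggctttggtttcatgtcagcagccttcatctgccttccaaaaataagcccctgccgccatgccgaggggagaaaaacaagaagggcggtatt
Syndig1: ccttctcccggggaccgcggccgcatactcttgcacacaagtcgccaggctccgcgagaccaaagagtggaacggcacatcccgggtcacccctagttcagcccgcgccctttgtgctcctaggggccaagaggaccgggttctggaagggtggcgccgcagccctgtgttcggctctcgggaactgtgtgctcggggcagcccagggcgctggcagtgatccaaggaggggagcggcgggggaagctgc
Cnksr1: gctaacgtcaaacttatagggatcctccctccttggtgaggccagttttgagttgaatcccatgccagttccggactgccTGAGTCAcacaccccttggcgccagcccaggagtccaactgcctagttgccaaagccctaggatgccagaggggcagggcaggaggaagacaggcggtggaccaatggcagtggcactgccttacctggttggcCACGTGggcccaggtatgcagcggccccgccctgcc
Both strands were searched for CATTCC (the M-CAT element bound by TEAD factors), TGANTCA (AP-1), ACGTG (the core of hypoxia response elements, which is also part of the CACGTG E-box) and TATAAA (the TATA box). In Cnksr1, an AP-1 match began 170 bases before the start and a pair of overlapping ACGTG matches, 1 on each strand, began 36 and 35 bases before it. The windows of Edn3, Fgf6 and Syndig1 held none of these letters.

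Of the 90 members, 63 had at least 1 window, with 86 windows in all. The M-CAT letters were in 11 of the 86 (12.8%) and in 12.6% of all 32851 windows of the table. The AP-1 letters were in 8 windows (9.3%, against 6.75% of all), in Bdnf, Cnksr1, Erc2, Gcnt4, Mctp1, Shc4, Tnfrsf9 and Zfp871. The hypoxia core was in 20 windows (23.3%, against 16.6%) of 18 members, and the TATA letters were in 5 windows (5.81%, against 12.4%). Windows of 1 gene can overlap and share matches, so these shares are descriptions.

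Although their sham levels were low, most members were not silent. Their sham means ran from 0 to 47.6 normalized reads with a median of 14.45, and 34 were under 10, 21 between 10 and 20, and 35 between 20 and 50. Only 10 members had a value of 0 in any sham library, and 6 had at most 3 reads in every one. Their PAB means ran from 16.1 to 306 with a median of 58.8, under 50 in 35 members, 50 to 100 in 34 and at least 100 in 21. No member had a 0 in PAB, and the lowest PAB library was under 10 in 6 of them. The ratio of the means had a median of 4.19 and ran from 2.06 in Tusc5 to 78.6 in Syndig1, where both means were above 0. The smallest ratio in the whole table was 2.001 in either direction, so the lower end of these ranges is set by the selection of the listed genes.

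**Figure D1:**
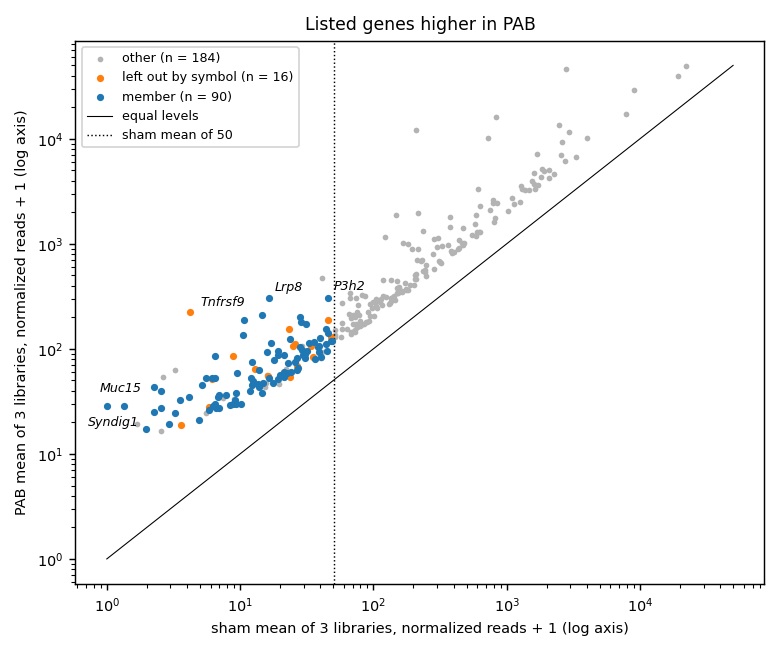
Mean of the 3 PAB libraries against the mean of the 3 sham libraries, in normalized reads plus 1 on log axes, for the 290 listed genes higher in PAB. The 90 members (blue) lie left of the dotted line at a sham mean of 50 and reach PAB means of at most 306, among genes whose PAB means otherwise reach far higher values.

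On the log2(value + 1) scale fitted with limma, the members' log2 fold changes ran from 1.01 to 4.28 with a median of 1.90. Folds of the members nearest 0 in sham depend on the pseudocount, and with 0.1 in place of 1 the values of 9 members moved by more than the spread between replicates, that of Syndig1 from 4.28 to 6.71 and that of Tnmd from 3.75 to 5.99. The median was 1.45 over all 290 genes higher in PAB and 1.28 over the 200 that are not members. With Muc15 set at its lower bound against 3 reads, the median was 1.90 as well, which was given in advance because Muc15 lies above it either way. There were 47 members with a log2 fold change of 1 to 2, 28 with 2 to 3 and 15 with 3 or more. All 90 had an unadjusted p under 0.05, as did 100% of the 617 listed genes, so the count says nothing about the members. Without PAB replicate 1 a p under 0.05 was found for 82 of the 90 and 603 of the 617, again a description of genes chosen by these values. In 84 of the 90 (93.3%) every PAB library exceeded every sham library, beside 94.8% of the 290 genes higher in PAB and 95.5% of the 200 others. Some of the 84 were separated only by the size factors. In whole reads, the lowest PAB library equalled the highest sham library in Fam177a, Itih4, Pbp2 and Rflna. In Myoz1 it was lower, with 40 reads against 41. Per kilobase of gene length, the median level of the members was 3.22 normalized reads in sham and 13.1 in PAB, and for the 179 other protein-coding genes higher in PAB it was 42.6 and 100.5. The members together made up 1.49% of the summed PAB means of all listed genes higher in PAB.

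**Figure D2:**
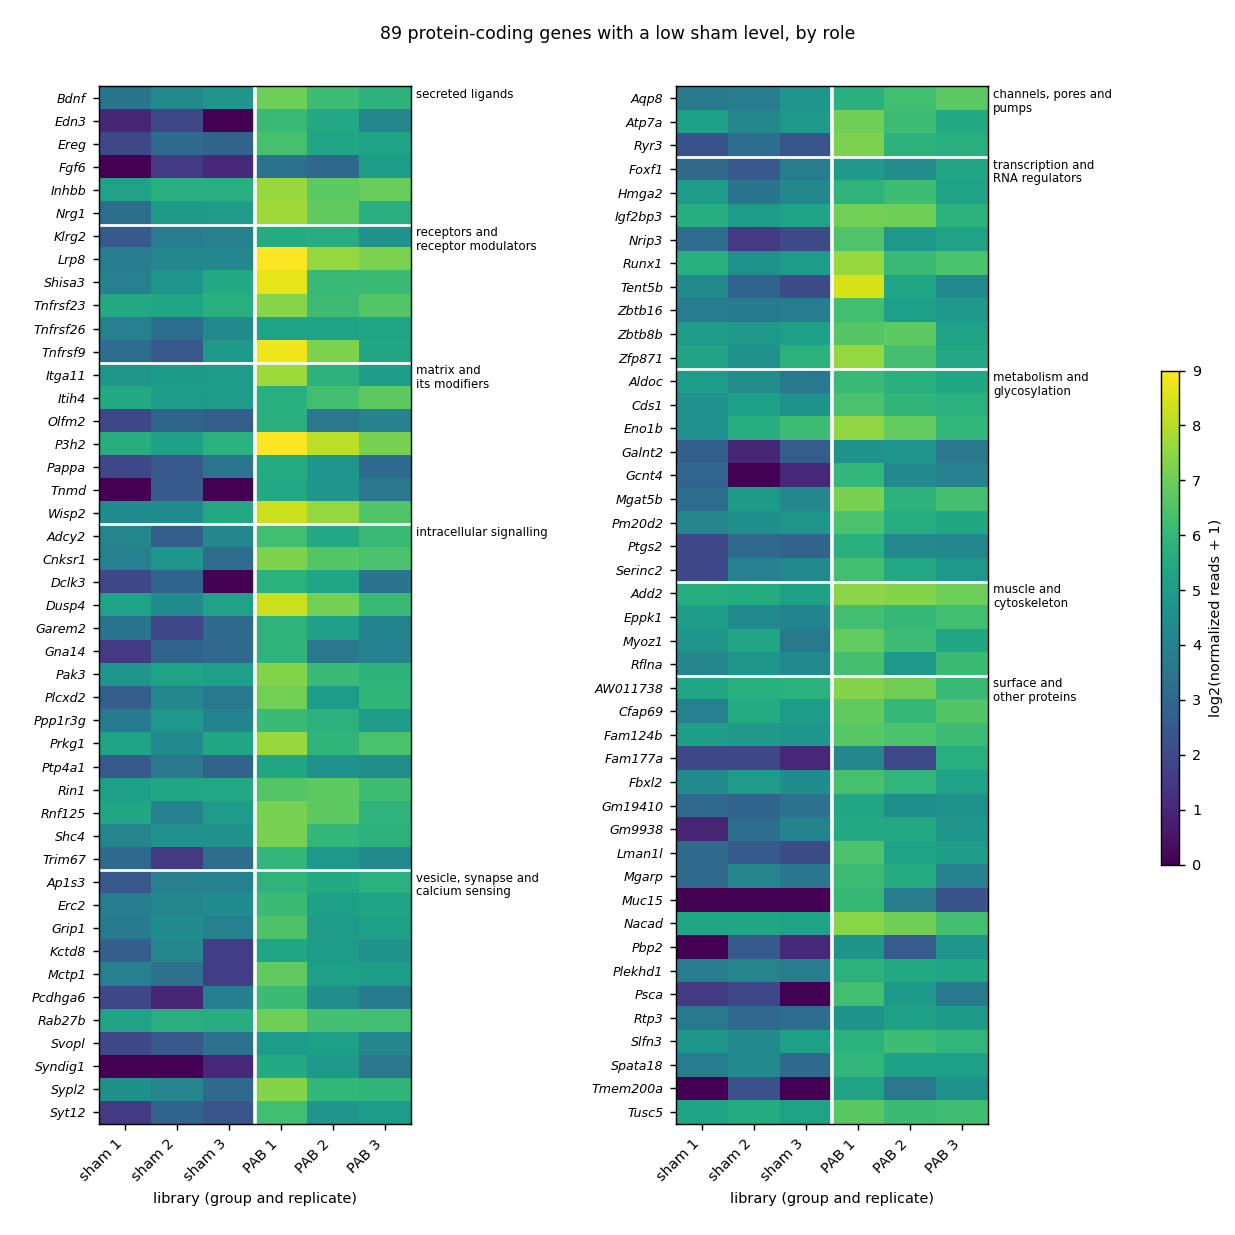
Level of 89 of the 90 members in each of the 6 libraries, as log2(normalized reads + 1), with members grouped by role and a white line between sham and PAB. Colors to the right of that line are brighter for nearly every gene, and brightest in PAB replicate 1 for 74 of the 89.

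Of the 6 members with at most 3 reads in every sham library, 5 had between 1 and 7 reads over the 3 sham libraries together and Muc15 had none. Syndig1, which associates with AMPA-type glutamate receptors, had 0, 0 and 1 reads in sham replicates 1, 2 and 3 and 42, 27 and 11 in the PAB replicates. The ratio of summed reads, corrected for the size factors, was 83.4 (95% interval 14.6 to 3336), so its size is poorly known. Edn3, a vasoactive peptide that acts on endothelin B receptors, had 1, 3 and 0 reads in sham and 64, 43 and 17 in PAB, a ratio of 32.3 (95% interval 12.3 to 120.5). Both genes were above their sham reads in every PAB library, with the lowest value in PAB replicate 3.

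Muc15, a membrane mucin of epithelia, was listed at 0 in every sham library and had 61, 13 and 4 reads in PAB. Against a floor of 3 reads per sham library, its PAB mean was at least 9.31-fold higher, and PAB replicate 1 held most of its reads. Psca, a small surface protein first described in prostate, had 2, 3 and 0 reads in sham and 72, 28 and 12 in PAB, a ratio of 23.4 (95% interval 9.72 to 73.3). Reads of Psca, too, were most numerous in PAB replicate 1.

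Fgf6, a fibroblast growth factor known from skeletal muscle, had 0, 2 and 1 reads in sham and 9, 7 and 32 in PAB, a ratio of 16.7 (95% interval 5.38 to 83.7). Fam177a had 3, 3 and 1 reads in sham and 16, 3 and 51 in PAB, a ratio of 10.4 (95% interval 4.803 to 26.9). Among the 6, these were the ones highest in PAB replicate 3. In Fam177a, PAB replicate 2 was within the range of the sham libraries in whole reads, and a stretch of 3863 bases of its transcripts occurs at 95% identity or more in 1700047I17Rik2, so its reads may be split between both genes. Exons of Syndig1 overlap those of C530025M09Rik over 290 bases, and whether reads were counted by strand is not given in the sources used here. The intervals are exact and cover counting error only.

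**Figure D3:**
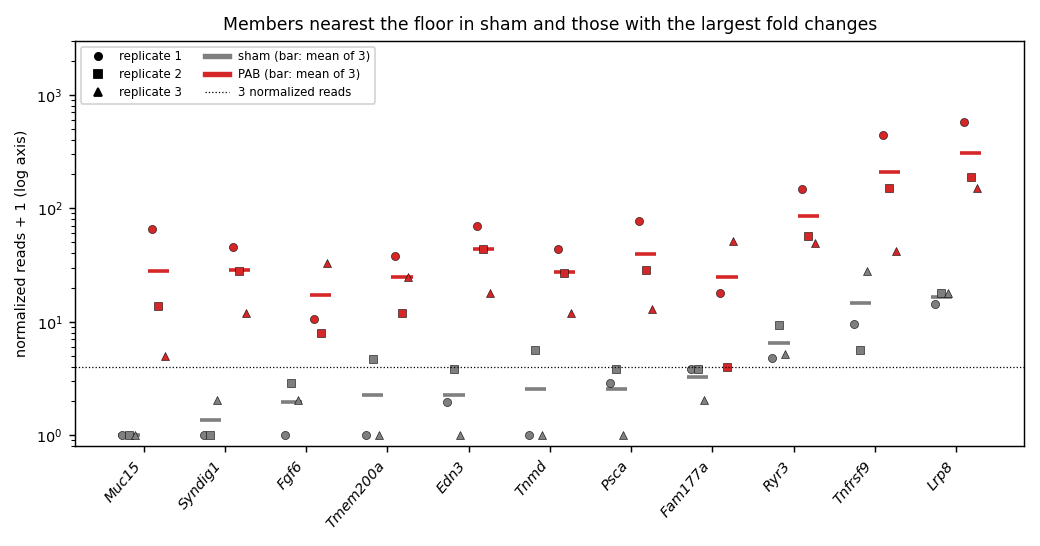
Normalized reads plus 1 (log axis) in each library for the 6 members with at most 3 reads in every sham library and 9 of the 10 with the largest log2 fold changes, 11 genes in all because 4 are in both sets. Bars are means of 3 libraries, symbols are replicates, and the dotted line marks 3 normalized reads. Sham points (gray) lie near or below that line for the genes on the left, and PAB points (red) of 1 gene spread up to 17.0-fold.

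Among secreted ligands there were 6 members, all 6 without overlap between the groups, with a median log2 fold change of 2.66. Apart from Edn3 and Fgf6 these were 2 ligands of the epidermal growth factor receptor family, a neurotrophin and an activin subunit. Epiregulin (Ereg) had 2.84, 7.48 and 6.29 normalized reads in sham replicates 1, 2 and 3 and 82.01, 38.7 and 35.8 in PAB replicates 1, 2 and 3. Neuregulin 1 (Nrg1), a growth factor for cardiomyocytes that endothelium releases, had 8.51, 28.99 and 30.4 in sham and 211, 111 and 49.7 in PAB. Their log2 fold changes were 2.998 (standard error 0.51) and 2.36 (standard error 0.59), and PAB replicate 1 was highest for both. Bdnf, the ligand of the TrkB receptor, had 10.4, 18.7 and 25.2 normalized reads in sham and 129, 72.4 and 55.6 in PAB, so that the log2 fold change was 2.17 (standard error 0.44), and its exons overlap those of Gm45346. For Inhbb, the beta B subunit of activin and inhibin, the values were 34.99, 49.6 and 49.3 and 196, 105 and 119. Inhbb was the least low of the ligands, and its log2 fold change was 1.59 (standard error 0.33).

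Function lists used for counts here are fixed sets of symbols and do not hold every gene with that function, so the counts cover only the symbols on a list that are also in the table. Of all 617 genes in the table, 47.0% were higher in PAB, the share beside which each list is to be read. On the list of growth factors and related ligands, which lacks Fgf6, 8 of 14 genes were higher in PAB and 6 lower, and 4 of the 8 were members (Bdnf, Ereg, Inhbb and Nrg1). Bmp7, Gdf15, Gdf6 and Wnt11 were the other 4 higher ones, with larger sham means. On the list of hormones, neuropeptides and their receptors, 5 of 8 genes were higher and Edn3 was the only member, beside Edn1, Nppa, Nppb and Nts.

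Receptors and receptor modulators numbered 6, all 6 without overlap, with a median log2 fold change of 2.02. Lrp8, which binds reelin and apolipoprotein E, had 13.2, 16.8 and 16.8 normalized reads in sham and 573, 189 and 149 in PAB. Tnfrsf9 (4-1BB), a costimulatory receptor of lymphocytes, had 8.51, 4.68 and 27.3 in sham and 438, 149.8 and 40.7 in PAB. Both were far above sham in PAB replicate 1 and less so in replicate 3, where Tnfrsf9 lay only 1.49-fold above the highest sham library. Their log2 fold changes were 3.94 (standard error 0.46) and 3.61 (standard error 0.80), or 3.35 and 2.78 without PAB replicate 1. Shisa3, which holds back Wnt and fibroblast growth factor receptors in the cell, had 14.2, 25.2 and 44.05 in sham and 407, 65.5 and 68.5 in PAB. Its PAB replicate 1 was 6.21 times the lowest PAB library, and its log2 fold change of 2.24 became 1.38 without that library.

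Tnfrsf23, a decoy receptor for the death ligand TRAIL, and its neighbor Tnfrsf26 lie 37087 bases apart on chromosome 7 of GRCm38, the only members within 200000 bases of each other. Tnfrsf26 had 14.2, 8.42 and 17.8 normalized reads in sham and 36.2, 36.7 and 37.8 in PAB, and Tnfrsf23 had 42.6, 38.3 and 49.3 and 165, 71.4 and 96.4. Tnfrsf26 was the most even of all members in PAB, with a highest to lowest ratio of 1.04, while the ratio for Tnfrsf23 was 2.31. Klrg2, a lectin-like receptor, had 4.73, 13.1 and 14.7 in sham and 45.8, 47.6 and 22.9 in PAB. On the fixed list of cytokines, chemokines and their receptors, 6 of 8 genes were higher in PAB, and the 3 members among them all belong to the tumor necrosis factor receptor family. Of the immune cell surface and antibody genes on their list, 2 of 6 were higher and 4 lower, and Klrg2 was the member.

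The matrix and its modifiers gave 7 members, 6 of them without overlap, with a median log2 fold change of 1.90. P3h2, which hydroxylates prolines of collagen, had the highest PAB mean of all members at 306 ± 182 (SD, n = 3) normalized reads against 44.8 ± 9.85 (SD, n = 3) in sham. By library P3h2 had 48.2, 33.7 and 52.4 in sham and 502, 276 and 141 in PAB, so that the log2 fold change was 2.59 (standard error 0.42). Exons of the opposite-strand gene Gm4524 cover 28.4% of its exonic bases, so part of these reads may belong to that gene. Wisp2 (CCN5), a matricellular protein, had 19.9, 19.6 and 41.95 in sham and 309.9, 191 and 93.4 in PAB, and its log2 fold change was 2.75 (standard error 0.46). Per kilobase Wisp2 had the highest PAB level of any member, 103 normalized reads, against 14.1 in sham.

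Tenomodulin (Tnmd), a membrane protein of tendon and valve, had 0, 4.68 and 0 normalized reads in sham and 42.6, 25.8 and 10.9 in PAB. It was at 0 in 2 of 3 sham libraries, and its log2 fold change was 3.75 (standard error 0.86). The collagen-binding integrin subunit Itga11 had 26.5, 28.99 and 29.4 in sham and 202, 55.5 and 31.8 in PAB. Sham libraries of Itga11 were nearly equal and PAB replicate 3 lay just above them, so its log2 fold change of 1.304 became 0.56 without PAB replicate 1. Pappa, a protease that frees insulin-like growth factors from their binding proteins, had 2.84, 4.68 and 10.5 in sham and 45.8, 25.8 and 7.95 in PAB. The groups of Pappa overlapped, since PAB replicate 3 was under sham replicate 3. Itih4, a plasma protein of the inter-alpha-trypsin inhibitor family, and Olfm2, an olfactomedin, had log2 fold changes of 1.074 and 1.903.

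On the list of matrix proteins and matrix enzymes, 24 of 27 genes were higher in PAB, and Pappa and Wisp2 were the members among them. Adamts20 also had a low sham level and was left out by its symbol. On the list of cell adhesion molecules, 5 of 12 genes were higher, with Itga11 and the protocadherin Pcdhga6 as members.

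Intracellular signalling was the largest group with a named role, 15 members, all 15 without overlap, with a median log2 fold change of 1.98. Dusp4, a nuclear phosphatase of MAP kinases, had 35.9, 19.6 and 35.7 normalized reads in sham and 307, 137 and 67.5 in PAB. Prkg1, the kinase activated by cyclic GMP, had 36.9, 18.7 and 40.9 in sham and 194, 58.5 and 84.4 in PAB. Values of both were highest in PAB replicate 1, with log2 fold changes of 2.23 (standard error 0.50) and 1.66 (standard error 0.47). Pak3, a kinase downstream of Rac and Cdc42, had 24.6, 35.5 and 32.5 in sham and 161, 68.4 and 55.6 in PAB, and the doublecortin-like kinase Dclk3 had 2.84, 6.55 and 0 and 53.2, 37.7 and 9.93. In Dclk3 the lowest PAB library, replicate 3, was close to the highest sham library. These 4 are the members on the fixed list of protein kinases and phosphatases, on which 6 of 10 genes were higher in PAB.

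The scaffold Cnksr1, which links Ras to Raf, had 14.2, 25.2 and 8.39 normalized reads in sham and 151, 98.2 and 85.4 in PAB, so that the log2 fold change was 2.82 (standard error 0.43). Adcy2, an adenylate cyclase, had 16.1, 5.61 and 16.8 in sham and 75.6, 42.6 and 67.5 in PAB. The G protein alpha subunit Gna14 had 1.89, 6.55 and 7.34 in sham and 57.5, 10.9 and 14.9 in PAB. The highest PAB library of Adcy2 and Cnksr1 was 1.77 and 1.77 times the lowest, whereas Gna14 was mainly high in replicate 1. The adaptors Shc4 and Garem2, the Ras effector Rin1, the ubiquitin ligases Rnf125 and Trim67, Plcxd2, the glycogen-targeting subunit Ppp1r3g and the phosphatase Ptp4a1 had log2 fold changes from 1.23 (Rin1) to 2.46 (Plcxd2). Another gene record of the same name overlaps 94.6% of the exonic bases of Ptp4a1, so its counts are uncertain. Among the small GTPase and G protein regulators on their list, 3 of 9 were higher in PAB and 6 lower, and Gna14 and Rab27b were the members. No gene on the list of cell cycle and mitosis was in the table.

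Genes of vesicles, synapses and calcium sensing numbered 11, with 10 of them without overlap and a median log2 fold change of 2.24. Sypl2 (mitsugumin 29), a membrane protein of the triad junction of muscle, had 21.8, 15.9 and 7.34 normalized reads in sham and 161, 60.5 and 58.6 in PAB. The synaptotagmin Syt12 had 1.89, 6.55 and 4.195 in sham and 76.7, 24.8 and 30.8 in PAB, and Mctp1, with calcium-binding C2 domains, had 14.2, 9.35 and 2.098 and 109.7, 33.7 and 31.8. In each of these 3, PAB replicate 1 stood above the other PAB libraries, which were near each other. Ap1s3, a subunit of the adaptor complex for clathrin coats, was among the 5 most even members, with 4.73, 14.03 and 14.7 in sham and 57.5, 44.6 and 52.6 in PAB. Rab27b, a GTPase of secretory vesicles, had 34.99, 48.6 and 47.2 in sham and 127, 79.3 and 78.5 in PAB, so that the log2 fold change was 1.08 (standard error 0.32).

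Pcdhga6, a clustered protocadherin, had 2.84, 0.935 and 13.6 normalized reads in sham and 69.2, 20.8 and 11.9 in PAB, so the groups overlapped. Exons shared with other genes of its cluster make up 44.8% of its exonic bases, and its reads can be split among them. The active-zone protein Erc2, the scaffold Grip1, the channel regulator Kctd8 and the transporter-like Svopl had log2 fold changes from 1.36 (Erc2) to 2.14 (Kctd8). The value of Kctd8 was 2.80 without sham replicate 2 and 1.54 without sham replicate 3. On the fixed list of synapse genes and neurotransmitter receptors, which lacks Erc2 and Grip1, 4 of 9 genes were higher in PAB, and Syndig1 and Syt12 were the members.

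There were 3 channels, pores and pumps, none with overlap. Ryr3, an intracellular calcium release channel, had 3.78, 8.42 and 4.195 normalized reads in sham and 147, 55.5 and 48.7 in PAB, with 3.598 (standard error 0.52) as its log2 fold change. Ryr3 was above sham in every PAB library by a wide margin, and its log2 fold change was 3.10 without PAB replicate 1. The water channel Aqp8 had 12.3, 13.1 and 25.2 in sham and 51.1, 77.4 and 104 in PAB, and unlike most members it was lowest in PAB replicate 1. The copper pump Atp7a had 33.1, 16.8 and 27.3 in sham and 129.9, 70.4 and 43.7 in PAB. On the list of ion and water channels, which holds no potassium channels, 11 of 15 genes were lower in PAB, and Aqp8 and Ryr3 were 2 of the 4 higher ones.

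Regulators of transcription and RNA numbered 9, of which 7 had no overlap, with a median log2 fold change of 1.62. Runx1, a factor of blood development that is also found in stressed cardiomyocytes, had 51.1, 23.4 and 29.4 normalized reads in sham and 194, 65.5 and 87.4 in PAB. The zinc finger repressor Zbtb16 (PLZF) had 13.2, 12.2 and 12.6 in sham and 75.6, 32.7 and 27.8 in PAB. Log2 fold changes of Runx1 and Zbtb16 were 1.63 (standard error 0.45) and 1.62 (standard error 0.45), and PAB replicate 1 was highest in both. The forkhead factor Foxf1 had 7.57, 4.68 and 12.6 in sham and 27.7, 20.8 and 38.7 in PAB, Zbtb8b had 29.3, 28.1 and 32.5 and 96.9, 109 and 35.8, and Zfp871 had 36.9, 22.4 and 53.5 and 188, 81.3 and 41.7. Foxf1 was highest in PAB replicate 3 and Zbtb8b in replicate 2, while in Zfp871 the groups overlapped because sham replicate 3 exceeded PAB replicate 3.

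Tent5b, a nucleotidyltransferase, had 18.9, 6.55 and 3.15 normalized reads in sham and 349, 37.7 and 18.9 in PAB. It had the widest range among PAB libraries of all members, 18.5-fold, its lowest PAB library was just under its highest sham library, and its log2 fold change of 2.92 was 1.70 without PAB replicate 1. The embryonic chromatin protein Hmga2, the fetal mRNA-binding protein Igf2bp3 and the nuclear receptor cofactor Nrip3 had log2 fold changes of 1.57, 1.37 and 3.24. In Igf2bp3, 1529 bases of transcript are shared with Malsu1. On the fixed list of DNA-binding transcription factors, 12 of 20 genes were higher in PAB, and 5 of these were members.

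Metabolism and glycosylation gave 10 members, 9 without overlap, with a median log2 fold change of 2.11. Ptgs2 (cyclooxygenase 2), which makes prostaglandin precursors, had 2.84, 7.48 and 6.29 normalized reads in sham and 51.1, 17.9 and 16.9 in PAB. Gcnt4, a glycosyltransferase of mucin-type sugar chains, had 6.62, 0 and 1.05 in sham and 61.8, 17.9 and 14.9 in PAB. Sham values of Gcnt4 included a 0 and PAB values were led by replicate 1, with a log2 fold change of 3.41 (standard error 0.85). The log2 fold change of Gcnt4 was 4.799 with a pseudocount of 0.1, 4.216 without sham replicate 1 and 2.751 without sham replicate 2.

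Eno1b, a close copy of the glycolytic enolase gene Eno1, had 22.7, 47.7 and 72.4 normalized reads in sham and 179, 113 and 60.6 in PAB, and the groups overlapped. A stretch of 1736 bases occurs in Eno1 too, so its reads cannot be assigned with certainty. The glycosyltransferases Mgat5b and Galnt2, the aldolase Aldoc, the phospholipid enzyme Cds1, Serinc2 and Pm20d2 had log2 fold changes from 1.28 (Cds1) to 2.35 (Mgat5b). Of the exonic bases of Galnt2, 90% lie in Gm20388 as well. On the fixed list of metabolic enzymes, which lacks Aldoc and Cds1, 9 of 16 genes were higher in PAB, and Eno1b and Ptgs2 were the members.

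Muscle and cytoskeleton held 4 members, none with overlap in normalized reads, with a median log2 fold change of 1.66. Myoz1 (calsarcin 2), a Z-disc protein of fast skeletal muscle, had 24.6, 38.3 and 11.5 normalized reads in sham and 114, 70.4 and 39.7 in PAB. It was the only member on the list of sarcomere genes, on which 9 of 13 genes were higher in PAB. Beta-adducin (Add2), which caps actin filaments, had 47.3, 46.8 and 34.6 in sham and 170.4, 159.7 and 128 in PAB, and epiplakin (Eppk1) had 31.2, 18.7 and 15.7 and 78.8, 63.5 and 76.5. These 2 were even across the PAB libraries, with highest to lowest ratios of 1.33 and 1.24. Rflna, an actin-bundling refilin, had a log2 fold change of 1.39.

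The remaining 19 members were surface proteins and proteins of other or unclear role, 18 of them without overlap, with a median log2 fold change of 1.67. Tmem200a had 0, 3.74 and 0 normalized reads in sham and 37.3, 10.9 and 23.8 in PAB, so that the log2 fold change was 3.74 (standard error 0.82), or 4.49 without sham replicate 2, the only sham library with a read. With a pseudocount of 0.1 the log2 fold change of Tmem200a was 5.99. Mgarp, a mitochondrial membrane protein, had 7.57, 15.9 and 10.5 in sham and 70.3, 46.6 and 14.9 in PAB, and the groups overlapped. Plekhd1 was even, with 13.2, 15.9 and 12.6 in sham and 54.3, 44.6 and 40.7 in PAB. The sham libraries of Nacad lay close together, with 38.8, 41.1 and 36.7 in sham and 168, 129.9 and 77.5 in PAB. Besides these, Fam177a, Muc15 and Psca, the log2 fold changes ran from 1.01 (Tusc5) to 3.02 (Lman1l), across AW011738, Cfap69, Fam124b, Fbxl2, Gm19410, Gm9938, Pbp2, Rtp3, Slfn3 and Spata18. A stretch of 1172 bases of Slfn3 is shared with Slfn4, and Gm10030 and 1700061E17Rik overlap 39.3% of the exonic bases of Rtp3.

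The limit of 50 on the sham mean fell within a continuous range. Just inside it were P3h2 at 44.8, AW011738 at 46.9 and Eno1b at 47.6, and just outside were Wnt11 at 50.5, Cysltr1 at 50.6 and Lnx1 at 50.7 normalized reads. Wnt11 had 65.3, 33.7 and 52.4 in sham and 226, 137 and 88.4 in PAB, Cysltr1 had 60.5, 60.8 and 30.4 and 197, 99.2 and 89.4, and Lnx1 had 77.5, 33.7 and 40.9 and 166, 112 and 122. AW011738 had 37.8, 50.5 and 52.4 in sham and 161, 131 and 65.6 in PAB.

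The PAB libraries differed from each other in the level of the members. Summed over the 90 genes there were 1491.5, 1590.7 and 1702.1 normalized reads in sham replicates 1, 2 and 3 and 10592.6, 5564.7 and 4351.2 in PAB replicates 1, 2 and 3. PAB replicate 1 was highest for 75 members (83.3%), replicate 2 for 8 and replicate 3 for 7, and 54 members (60.0%) fell in the order 1, 2, 3. Among the 200 other listed genes higher in PAB, replicate 1 was highest for 177 (88.5%), and 145 (72.5%) followed that order. The ratio of highest to lowest PAB library had a median of 2.76 in the members and 2.07 in the others. The members have lower counts than the others, and the part of counting error in these differences was not tested. The share of a gene's summed PAB signal that came from replicate 1 had a median of 50.5% (19.8% to 86.1%) in the members and 46.0% in the others.

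**Figure D4:**
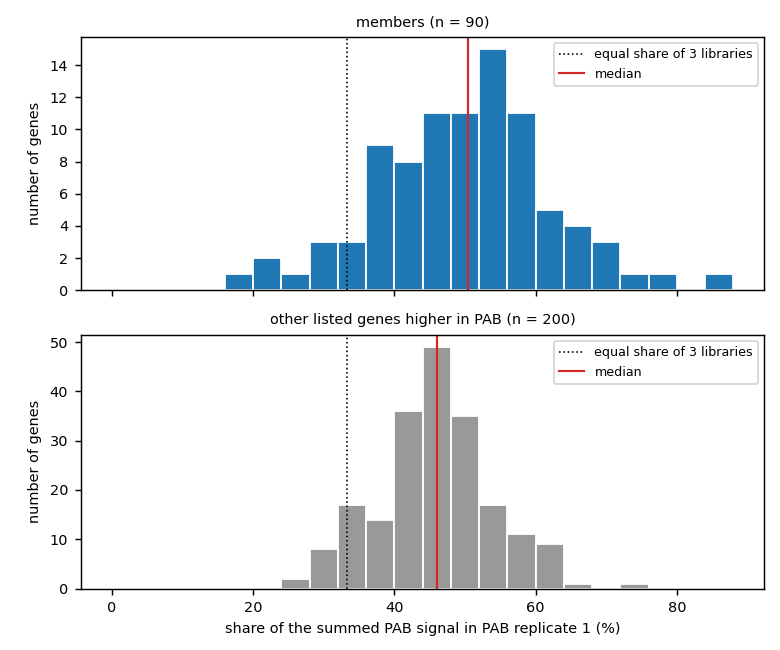
Share of each gene's summed PAB signal found in PAB replicate 1, in percent, for the 90 members and the 200 other listed genes higher in PAB. Red lines are medians, at 50.5% and 46.0%, and most genes of both sets lie right of the dotted line for an equal share, with a wider spread among the members.

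Between replicates the SD of log2(value + 1) had a median of 0.602 in sham and 0.753 in PAB for the members, and 0.207 and 0.535 for the other genes higher in PAB. Without PAB replicate 1 the median log2 fold change of the members was 1.67, the value was lower in 83 of 90, and it was under 1 in 8. Aqp8, Itih4, Fgf6 and Rtp3 were among the 7 for which it was not lower. Leaving out that library made the fold change of 11 members smaller by over 1.5 times, namely Gcnt4, Gna14, Itga11, Lrp8, Muc15, Olfm2, Pcdhga6, Psca, Shisa3, Tent5b and Tnfrsf9. Leaving out PAB replicate 3 moved 9 members by as much, 7 of them upward, namely Dclk3, Fam177a, Fgf6, Mgarp, Muc15, Pappa, Psca, Tent5b and Tnfrsf9, and PAB replicate 2 moved Fam177a and Pbp2. Sham replicate 1 moved Gcnt4, Gm9938, Pbp2, Serinc2 and Tent5b. Sham replicate 2 moved Dclk3, Gcnt4, Kctd8, Pbp2, Pcdhga6, Tmem200a and Tnmd, and sham replicate 3 moved Dclk3, Gm9938, Kctd8, Mctp1, Pcdhga6 and Tnfrsf9. The log2 fold change of Fam177a, for example, became 1.45 when PAB replicate 3 was left out and 3.298 when replicate 2 was. No member changed direction, which the choice of members by the group means made likely. When libraries were scaled by median ratios, a shift of 0.594 (log2) of PAB relative to sham, the 90 genes all remained members. A shift in that direction made this likely in advance.

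Markers of other cell types are sparse in the table, with 13 of 159 marker symbols listed. Of 12 activated fibroblast markers 4 were listed, all higher in PAB, namely Cilp, Ltbp2, Thbs4 and the member Wisp2. The design named Cilp and Thbs4 for this cell type, but not Ltbp2 or Wisp2. Cilp had 103, 108 and 154 normalized reads in sham and 1995, 981 and 506 in PAB. That order of PAB libraries was found in 60.0% of the members and in 72.5% of the other listed genes higher in PAB. The only listed marker of 12 for resting fibroblasts, Dpt, and the only one of 11 for macrophages, C1qa, were lower, with log2 fold changes of -1.21 and -1.12. Listed and higher were Vwf (1 of 10 endothelial markers), Cnn1 (1 of 8 for smooth muscle) and Krt8 and Krt18 (2 of 8 for epithelium). Nppa was the only listed marker of 8 for atrial muscle and was higher, and the authors use it as a marker of hypertrophy. Of 9 skeletal muscle markers, Acta1 was higher and Tnni2 lower. None of the markers fixed for neurons, Schwann cells, T, B, erythroid or neutrophil cells, epicardium, cartilage or fat was listed. Levels of unlisted markers were not analysed here, and the part of cell composition in the members' values was not tested.

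The members are spread over every autosome and the X chromosome, with at most 9 on one, chromosome 4. Of the 90, 89 were found by identifier in GENCODE vM21, all but Gm9938. Exons of 30 overlap exons of another gene, in 5 cases on the same strand, and 33 share a stretch of at least 100 bases with another gene, in 15 cases of at least 500. Neither applied to 52 members, and their median log2 fold change was 1.82. Edn3 lies on chromosome 2 from 174760619 to 174784042 on the plus strand and Lrp8 on chromosome 4 from 107802261 to 107876840 on the plus strand, in GRCm38. Tnfrsf9 lies on chromosome 4 from 150914562 to 150946102 on the plus strand and Ryr3 on chromosome 2 from 112631355 to 113217096 on the minus strand, where its exons overlap those of Aven.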

How the data were processed

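The RNA-seq data are 6 RV libraries, 3 sham and 3 PAB (the strand setting of the counting is not given in the sources used here). Per the labels, libraries were made with a NEBNext Ultra kit, and the submitters' processing notes name HISAT2 2.0.5, StringTie 1.3.3b, featureCounts 1.5.0-p3, GATK 3.7 and the build mm10. The authors cleaned the reads with in-house Perl scripts and used DESeq2 to compare the groups. The deposited values are called FPKM by the authors, yet they are a signal, namely read counts scaled by a single size factor for each library, with no division by gene length. In each library 160 to 215 values under 50 were checked, and 100% were whole multiples of the library's smallest step within 0.1 of a read. The deposited fold change and p-value columns of the authors were not used.

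Groups came from the titles of the samples. The design had assumed FPKM, and the same log-scale test was kept for the signal. PAB and sham were compared in R 4.3.3 with limma 3.58.1 (a trended eBayes fit) on log2(value + 1) over all 617 genes, with no filter. The fold change on this scale understates that of low genes. In a simulation of this comparison with 617 genes, of which 200 were changed by 1.5 on the log2 scale, the adjusted test recovered 96.5% and the unadjusted test called 4.56% of unchanged genes. The simulation gave every gene the same dispersion of 0.0567 and left most genes unchanged. Its rates therefore do not carry over to the low members or to a table of selected genes. The members and the gene lists were chosen with earlier results of these data known, and roles were assigned after the values were seen. Values by library are given for members at the floor, the 10 largest fold changes, the 10 highest PAB means, the 5 widest and 5 narrowest PAB ranges, overlapping members, neighbors of the limit and members of 14 function lists. A few further members, chosen after their values were seen, are also given by library, and 1 member is counted but not reported here. Members were matched to GENCODE vM21, and transcript stretches of at least 100 bases at 95% identity were sought with blastn 2.17.0. Python 3.11.15 with numpy 2.4.6, pandas 2.3.3, scipy 1.17.1 and matplotlib 3.10.9 was used otherwise. Alternatives were another pseudocount, scaling, a minimum mean, no trend, a replicate block, other limits and leaving out each library.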

Additional observations from a re-analysis of the deposited data

How the results depend on the processing

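The members stayed higher in PAB under each alternative fitted. This was largely given in advance, since the group means chose them and the smallest ratio among listed genes was 2.001. The members' median log2 fold change was 1.90, and 2.05 with a pseudocount of 0.1, 2.46 with median-ratio scaling and 1.67 to 2.17 with each library left out. That scaling left 506 of 617 listed genes at an unadjusted p under 0.05 in limma, with lower calls going from 327 to 216, and gave 98 members, the 90 among them. It treats the typical listed gene as unchanged, although the genes were listed for differing. With a limit of 20 on the sham mean there were 55 members in place of 90. At most 5 reads in every sham library held for 9 members and at most 10 reads for 24, in place of 6. Leaving out each library gave 591 to 614 calls, 90 to 92 members and 84 to 90 members without overlap. For the same genes this last count can only stay or rise, because fewer libraries cannot make separated groups overlap. Of the 90 members, 88 remained without sham replicate 1, 89 without sham replicate 2 and 90 in each other case. Without the members that share exons or transcript stretches with another gene, chosen after seeing the data, PAB replicate 1 was highest for 45 of 52, the drop from 75 coming from the fewer genes counted.

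The labels number the libraries 1 to 3 in each group, but deviations of same-numbered libraries correlated across genes at -0.059, -0.055 and -0.199, so the numbers were not taken to pair them. With the replicate block limma called 616 genes, 289 higher and 327 lower, and the members' median was 1.90. Count tests with edgeR and DESeq2 on whole reads were not run, because the 81 to 101 values of at most 20 reads per library were judged too few to establish whole reads for the whole table, and reads printed for members at the floor rest on the same step. Counting error is largest for the members at the floor, total depth is unknown, and 3 libraries per group limit all values.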
